A study of Mus musculus with 16 samples.

Results

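Open chromatin was described around 10 interferon-stimulated antiviral genes: Ifih1, Ifit1, Ifit2, Ifit3, Isg15, Rsad2, Cmpk2, Mx1, Gbp2 and Oasl1. ATAC-seq peaks of 4 treatment groups that overlapped by at least 1 bp were merged into 37648 regions. A region was taken when its midpoint lay no more than 100 kb from the start site of transcription (TSS) of one of the 10 genes. This rule used position alone and gave 66 of the 37648 regions, in 7 loci. Ifit1, Ifit2 and Ifit3 are neighbours on chromosome 19 and Rsad2 and Cmpk2 are neighbours on chromosome 12, so 19 regions lay near more than 1 member and were counted once.

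ATAC-seq uses the Tn5 transposase to tag DNA that is not wrapped tightly in chromatin, so that accessible sites gather reads. The cells were bone marrow-derived macrophages (BMDMs) of female C57BL/6J mice, 8 to 10 weeks old per the study's methods, matured in L-cell conditioned medium and then deprived of serum for a day. On day 8 all 4 groups spent 3 h in DMSO (Veh) or in 500 nM T0901317 (T0), a synthetic agonist of the liver X receptor (LXR), a nuclear receptor for oxysterols. Veh and T0 were collected then, whereas LPS (DMSO first) and T0-LPS (T0 first) also received 10 ng/mL lipopolysaccharide, the bacterial ligand of TLR4, for 2 h. It was added to the medium that still held the agonist, per the study's methods. An effect of LPS thus cannot be told apart from 2 h more in culture. Between T0 and T0-LPS it also cannot be told apart from 2 h more of T0. Each group had 4 libraries of 50000 cells.

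Type I interferon signals through its receptor and the kinases JAK1 and TYK2 to transcription factors that bind the interferon-stimulated response element (ISRE). Macrophages that sense LPS through TLR4 and its adaptor TRIF make interferon-beta and so turn on these genes in themselves and their neighbours, and IRF3 can also act on some ISREs directly. The products then limit viruses: IFIH1 (MDA5) senses viral RNA, the IFIT proteins bind foreign RNA and block its translation, ISG15 is a ubiquitin-like tag, viperin (Rsad2) and its neighbour CMPK2 act on nucleotides, and MX1 and GBP2 are large GTPases.

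The lists of peaks were 35551 (Veh), 29839 (T0), 33181 (LPS) and 31085 (T0-LPS) lines long. Peaks had been called on the 4 libraries of a group together and then restricted to macrophage enhancers, so each group was 1 list. No value below has a replicate check and no p-value is given. A region was lost when the first list of a comparison held it and the second did not, and gained in the opposite case. The score of a peak, which grows with depth, was used only as its percentile within its own list, from 0 for the weakest to 100 for the strongest, and a rise or a fall means a difference of at least 20 percentile points. The T0 list was the shortest, and the percentile of a region found in both lists differed between T0 and Veh by a median of -5.58 points over all regions. Calls were therefore repeated on ranks within the 26439 regions that all 4 lists held, called the common ranks below. Peak names carry running numbers, and where none was skipped between the neighbours of a missing region, the enhancer filter cannot have taken a peak out there. Regions within 1 kb of the TSS were found in all 4 lists for 6 of 6 macrophage markers and in none for 4 of 4 T cell and B cell markers. Of the 2 neutrophil markers S100a8 had such a region in 4 lists and Ly6g in none, and of the 2 fibroblast markers Col1a1 had one in 1 list (Veh, percentile 4.80) and Pdgfra none. Because the lists had been restricted to macrophage enhancers, these marker counts cannot show which cells were present.

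The ISRE core, GAAANNGAAA on either strand, is printed here because 5 of the 9 member regions that were gained or rose with LPS held it. RefSeq promoter sequences (GRCm38.p6, 250 bases before to 50 bases after the start) were found for 9 of the 10 members, and 6 of these 9 held the core, against 3.94% of 17492 genes. In Ifih1 the core lay 32 to 41 bases after the start. The other 5 held it upstream of the RefSeq start, and their sequences are given 5′ to 3′ on the gene's strand with the core in capitals. Distances in these lines are from the RefSeq start, which for Gbp2 lies 61 bases downstream of the GENCODE TSS used elsewhere, so that its core stands 2 to 11 bases after that TSS. For the other 4 the starts differ by at most 18 bases. The stretches for Ifit1 and Gbp2 are short because the window overlaps an annotated UTR.
Isg15, -165 to -26 from the start, chr4:156200844-156200983 (- strand): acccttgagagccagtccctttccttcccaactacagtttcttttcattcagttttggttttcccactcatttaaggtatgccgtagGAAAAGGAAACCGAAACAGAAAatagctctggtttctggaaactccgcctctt
Ifit3, -165 to -26, chr19:34583364-34583503 (+ strand): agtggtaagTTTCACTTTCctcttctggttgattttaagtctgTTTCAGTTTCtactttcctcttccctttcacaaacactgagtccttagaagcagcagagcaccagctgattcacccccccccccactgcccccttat
Ifit1, -105 to -76, chr19:34640784-34640813 (+ strand): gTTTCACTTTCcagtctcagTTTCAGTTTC
Rsad2, -165 to -26, chr12:26456478-26456617 (- strand): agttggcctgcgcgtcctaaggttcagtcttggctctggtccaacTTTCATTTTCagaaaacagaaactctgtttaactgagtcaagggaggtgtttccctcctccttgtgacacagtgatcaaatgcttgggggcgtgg
Gbp2, -69 to -40, chr3:142620594-142620623 (+ strand): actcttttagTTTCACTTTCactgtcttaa

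Away from the members' own starts, the core stood in 4 further stretches that the results below turn on. They were read from the GRCm38.p6 genome on the plus strand. Distances are from the member's TSS to the midpoint of the region, and negative ones lie upstream.
Rsad2, region at -3828 bp, chr12:26460192-26460311 (+ strand): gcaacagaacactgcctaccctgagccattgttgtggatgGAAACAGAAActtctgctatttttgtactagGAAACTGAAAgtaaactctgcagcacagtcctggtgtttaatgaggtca
Rsad2, region at 16934 bp, chr12:26439447-26439566 (+ strand): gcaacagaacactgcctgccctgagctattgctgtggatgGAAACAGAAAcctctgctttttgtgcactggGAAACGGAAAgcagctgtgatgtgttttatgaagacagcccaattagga
Ifih1, region at -39971 bp, chr2:62686080-62686199 (+ strand): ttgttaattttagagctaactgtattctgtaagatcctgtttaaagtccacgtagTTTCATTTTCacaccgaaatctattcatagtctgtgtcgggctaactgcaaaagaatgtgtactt
Gbp2, region at -60681 bp, chr3:142559992-142560021 (+ strand): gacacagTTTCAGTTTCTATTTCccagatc
The 2 Rsad2 stretches are alike in part and are called copies below. Over the 120 bases printed, 76 were identical (63.3%). Over the 81 bases that end with the second core, 72 were identical (88.9%). No other of the 37620 regions on the main chromosomes matched the 16934 bp copy at 80% or more over these 81 bases without gaps, and the next best match was 54.3%.

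At the start sites, a region covered the TSS of 9 members, and the nearest region of Oasl1 lay at -728 bp. All of these were in all 4 lists except that of Isg15. In Veh their percentiles ran from 32.9 (Rsad2) to 87.7 (Ifih1), so 9 of these start regions were called as open in resting macrophages. On this scale LPS was higher than Veh at 6 of 9 starts and lower at Ifit2, Oasl1 and Ifih1, whereas on the common ranks it was higher at 7. Over all regions within 1 kb of a protein-coding TSS, 48.2% were higher in LPS on the whole lists and 61.0% on the common ranks. T0 was lower than Veh at 6 of 9, against 69.3% of all such regions, and again at the same 6 on ranks among regions in all 4 lists, where 41.2% of all such regions were lower.

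**Figure D1:**
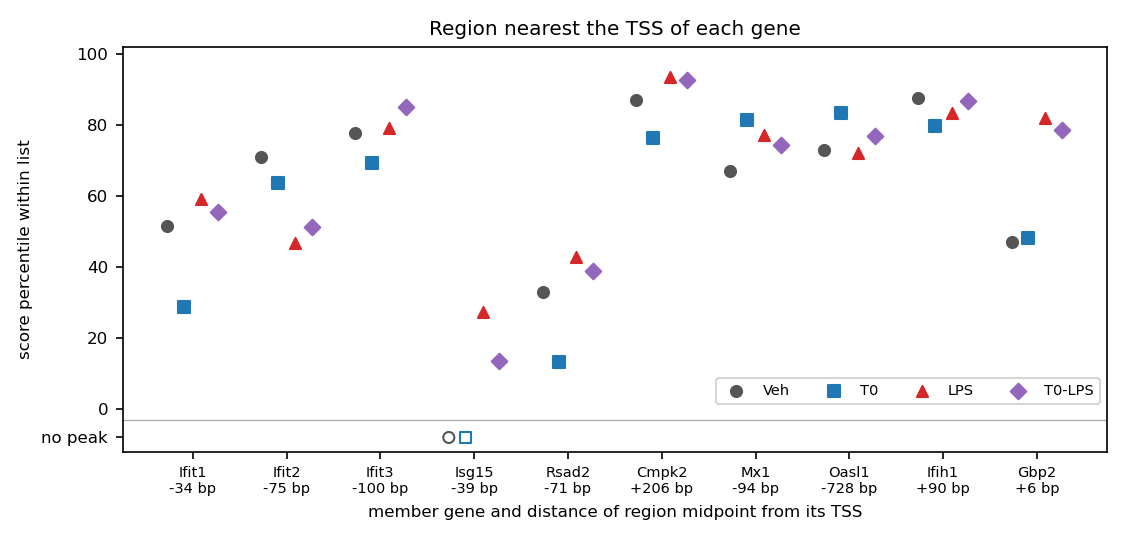
Score percentile (y axis, within each list) of the region nearest the TSS of each of the 10 genes (x axis, with the distance of its midpoint). Each point is 1 list pooled from 4 libraries, so there are no error bars. Isg15 has no peak in Veh and T0 (open symbols) and Gbp2 stands at 47.1 and 48.1 without LPS and at 82.1 and 78.7 with it.

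Ifih1 encodes MDA5, the cytosolic sensor of long double-stranded RNA, and its TSS is at 62646255 on chromosome 2. Its start region (90 bp, chr2:62645907-62646424, in the UTR) was among the strongest of the members, with percentiles of 87.7 (Veh), 79.8 (T0), 83.5 (LPS) and 86.9 (T0-LPS). These differ by less than 20 points. A weaker region in its coding sequence, at 617 bp, stood at 24.4 in Veh, 39.3 in LPS and 32.7 in T0-LPS and was missing from T0. Calls with LPS lay further upstream, in introns of Gca, which encodes the calcium-binding protein grancalcin. The region at -34856 bp (chr2:62680821-62681402) was at 52.2 (Veh), 50.6 (T0), 84.4 (LPS) and 78.6 (T0-LPS). It rose by 32.2 points with LPS, and by 43.8 on ranks among regions in all 4 lists. The region at -39971 bp (chr2:62686013-62686439), whose sequence is printed above, rose from 1.43 in Veh to 21.9 in LPS, stood at 15.9 in T0-LPS and was missing from T0. The numbering of the T0 peaks leaves room there for 1 peak that the enhancer filter took out.

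The Ifit cluster spans Ifit2 (TSS 34550694), Ifit3 (34583531) and Ifit1 (34640871) on chromosome 19, which encode tetratricopeptide proteins that hold viral RNA, and had 16 regions. Ifit1 was at 51.5 (Veh), 28.8 (T0), 59.1 (LPS) and 55.6 (T0-LPS). It fell by 22.6 points with T0, but the difference was -13.7 on ranks among regions in all 4 lists, which is no call. In LPS it differed by less than 10 points from Veh, and from T0 to T0-LPS it rose by 26.8. Ifit2 was at 70.9 (Veh), 63.8 (T0), 46.8 (LPS) and 51.3 (T0-LPS), so that it fell by 24.1 points with LPS (-26.0 on the common ranks). Ifit3 was at 77.9, 69.2, 79.1 and 85.2 in the same order of lists, with no call. Ifit1 and Ifit3 had 2 ISRE cores each in the 200 bp at the centre of the start region and Ifit2 had none.

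Among the weaker regions of the cluster, 5 were lost from Veh to T0. The start of Ifit1bl1, an Ifit1 relative, 18574 bp from Ifit3, was at 12.1 in Veh, 10.3 in LPS and 22.4 in T0-LPS. The intron of Ifit2 at 2410 bp was at 11.8 in Veh and 12.0 in LPS and was missing from T0 and from T0-LPS. A region in the Ifit2 UTR at -13256 bp from Ifit3 was found in Veh alone, at 29.5. So was one near Ifit3b, at 23793 bp from Ifit3, at 2.36. The Ifit3b start itself, 24304 bp from Ifit3, was at 65.6, 60.2, 72.6 and 71.2 in Veh, T0, LPS and T0-LPS, with no call. No peak had been removed from the T0 list at any of the 4 lost sites named here. The fifth lay at 88858 bp from Ifit1 in an intron of Slc16a12, at 31.2 in Veh and 13.9 in T0-LPS, with room for 1 removed peak in both T0 and LPS. Another Slc16a12 intron region, at 83930 bp, was found in LPS alone, at 2.10. On the other side, near Ch25h, which encodes cholesterol 25-hydroxylase and is itself induced by interferon, the region at -86004 bp from Ifit2 was at 57.2 (Veh), 37.7 (T0), 34.7 (LPS) and 37.4 (T0-LPS). It fell by 22.4 points with LPS (-21.3 on the common ranks). The region at -78764 bp was at 31.9 (Veh), 2.96 (T0), 6.96 (LPS) and 39.1 (T0-LPS), the only region of the 66 that rose with T0 in LPS-treated cells.

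Isg15 (TSS 156200818, chromosome 4) encodes the ubiquitin-like modifier that is attached to many proteins after interferon. Its start region (-39 bp, chr4:156200717-156200997) was the only start region that was missing from a list. It was absent from Veh and T0, with no removed peak in either, and appeared at 27.3 in LPS and 13.5 in T0-LPS, with scores of 187 and 119. The difference between these 2 percentiles was -13.7 points, which is no call. This region holds the 3 overlapping ISRE cores printed above. Of the 10 other regions in its window, -34052 bp (at the Plekhn1 start, 8.61) was found in Veh alone. The region at -9475 bp stood at 17.4 in Veh, 26.2 in LPS and 19.3 in T0-LPS and was missing from T0, and the one at -27220 bp stood at 7.53 in Veh, 2.32 in T0 and 25.3 in LPS and was missing from T0-LPS. At -2334 bp the percentiles were 25.5 (Veh), 17.9 (T0), 30.6 (LPS) and 38.5 (T0-LPS).

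Rsad2 (TSS 26456452, minus strand) and Cmpk2 (TSS 26469204, plus strand) diverge from a shared stretch of chromosome 12 and had the same 7 regions. Rsad2 encodes viperin, a radical-SAM enzyme that makes a chain-terminating nucleotide, and Cmpk2 a kinase that supplies nucleotides. The Cmpk2 start (206 bp) was at 87.0 (Veh), 76.3 (T0), 93.6 (LPS) and 92.8 (T0-LPS). The Rsad2 start (-71 bp) was weaker, at 32.9, 13.4, 42.8 and 38.8 in the same order. Neither passed 20 points with T0 or with LPS, and from T0 to T0-LPS the Rsad2 start rose by 25.4.

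The upstream copy of the ISRE pair, between the 2 genes at -3828 bp (chr12:26460050-26460511), was in all 4 lists at 76.8 (Veh), 67.8 (T0), 78.2 (LPS) and 83.5 (T0-LPS). The downstream copy, at 16934 bp (chr12:26439277-26439759), had the largest rise with LPS of the 66 regions. It stood at 4.80 in Veh, was missing from T0 with no removed peak there, and stood at 46.5 in LPS and 32.4 in T0-LPS, with scores of 98, 296 and 195. So both copies were peaks in Veh, and the downstream one rose by 41.7 points while the upstream one differed by 1.37. Whether the likeness of the 2 stretches bears on how reads were placed between them was not tested. The other 3 regions away from the starts of Rsad2 and Cmpk2 fell with LPS. The Rsad2 intron at 3302 bp was at 35.8 in Veh, 15.7 in T0 and 5.11 in LPS and was missing from T0-LPS. The region at 41384 bp, at the start of the ubiquitin ligase gene Rnf144a, was at 41.2 (Veh), 14.1 (T0), 20.2 (LPS) and 30.7 (T0-LPS). On the common ranks, however, its differences were -14.2 with T0 and -14.4 with LPS. In an intron of Rnf144a, the region at 57704 bp was at 74.6, 47.2, 54.0 and 44.0. This fall held on the common ranks (-25.0 points with T0 and -22.5 with LPS). By peak width in place of score its differences were -0.885 with T0 and -18.9 with LPS, which are no calls.

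Mx1 (TSS 97462907, chromosome 16) encodes a GTPase against influenza viruses that is defective in C57BL/6 mice because of a deletion in the gene. Its start (-94 bp) was at 67.2 (Veh), 81.4 (T0), 77.2 (LPS) and 74.5 (T0-LPS), and was 1 of 3 starts with a higher percentile in T0 than in Veh. On the common ranks it stood at 56.4 in Veh and 79.1 in T0, the only rise of at least 20 points with T0 on that scale among the member regions. The region at -9836 bp, in an intron annotated to Fam3b, was at 66.7 (Veh), 54.0 (T0), 81.2 (LPS) and 85.2 (T0-LPS), and rose by 31.2 points from T0 to T0-LPS. A weaker one at -15902 bp went from 12.6 in Veh to 24.0 in LPS and 37.4 in T0-LPS and was missing from T0. The region at -5293 bp fell by 21.0 points with LPS, from 44.7 to 23.7, but moved by only -15.8 on the common ranks. The region at 1444 bp was found in Veh alone, at 9.87, with room for removed peaks in the other 3 lists.

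Gbp2 (TSS 142620602, chromosome 3) encodes a guanylate-binding protein that acts on pathogen vacuoles and answers both to type I interferon and to interferon-gamma. Its start region (6 bp, chr3:142620279-142620937) was at 47.1 (Veh), 48.1 (T0), 82.1 (LPS) and 78.7 (T0-LPS). The rise of 35.1 points with LPS was the largest among the 9 starts that both lists held, and was 47.6 on the common ranks. Its peak did not widen with it, from 659 bp in Veh to 550 bp in LPS. Beside it, a region at -783 bp was found in LPS alone (16.2) and one at 761 bp in Veh alone (19.8), and in each case a peak could have been removed from the other lists. At -60681 bp, just before the start of the related gene Gbp3, a region with 2 overlapping cores was missing from Veh and T0, with no removed peak in either. It was found at 13.9 in LPS and 5.86 in T0-LPS. The region next to it, at -60018 bp and 558 bp after the Gbp3 start, also held a core. It was in all 4 lists, at 87.3 (Veh), 76.6 (T0), 75.0 (LPS) and 76.0 (T0-LPS), so the Gbp3 start had a strong peak without LPS. The Gbp7 start at -90308 bp, which also held a core, was strong in all lists, between 90.0 and 96.5.

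Oasl1 (TSS 114923240, chromosome 5) encodes an OAS-like protein without the synthetase activity, known to dampen translation of IRF7. Its nearest region (-728 bp) was at 73.1 (Veh), 83.4 (T0), 72.2 (LPS) and 76.9 (T0-LPS), and 71.8% of its bases were soft-masked as repeat in the genome. A region at -1193 bp stayed at or below 3.98 in all 4 lists. Regions at -6334 bp (14.2) and -99796 bp (7.01) were found in Veh alone, and one at -30924 bp, near Oasl2, in LPS alone (4.96). The region at -67793 bp fell from 56.8 in Veh to 34.2 in T0 and to 25.6 in LPS, and stood at 40.5 in T0-LPS. On the common ranks the difference was -29.6 with LPS and -15.1 with T0. No ISRE core was found in the central 200 bp of any of the 9 regions around Oasl1.

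**Figure D2:**
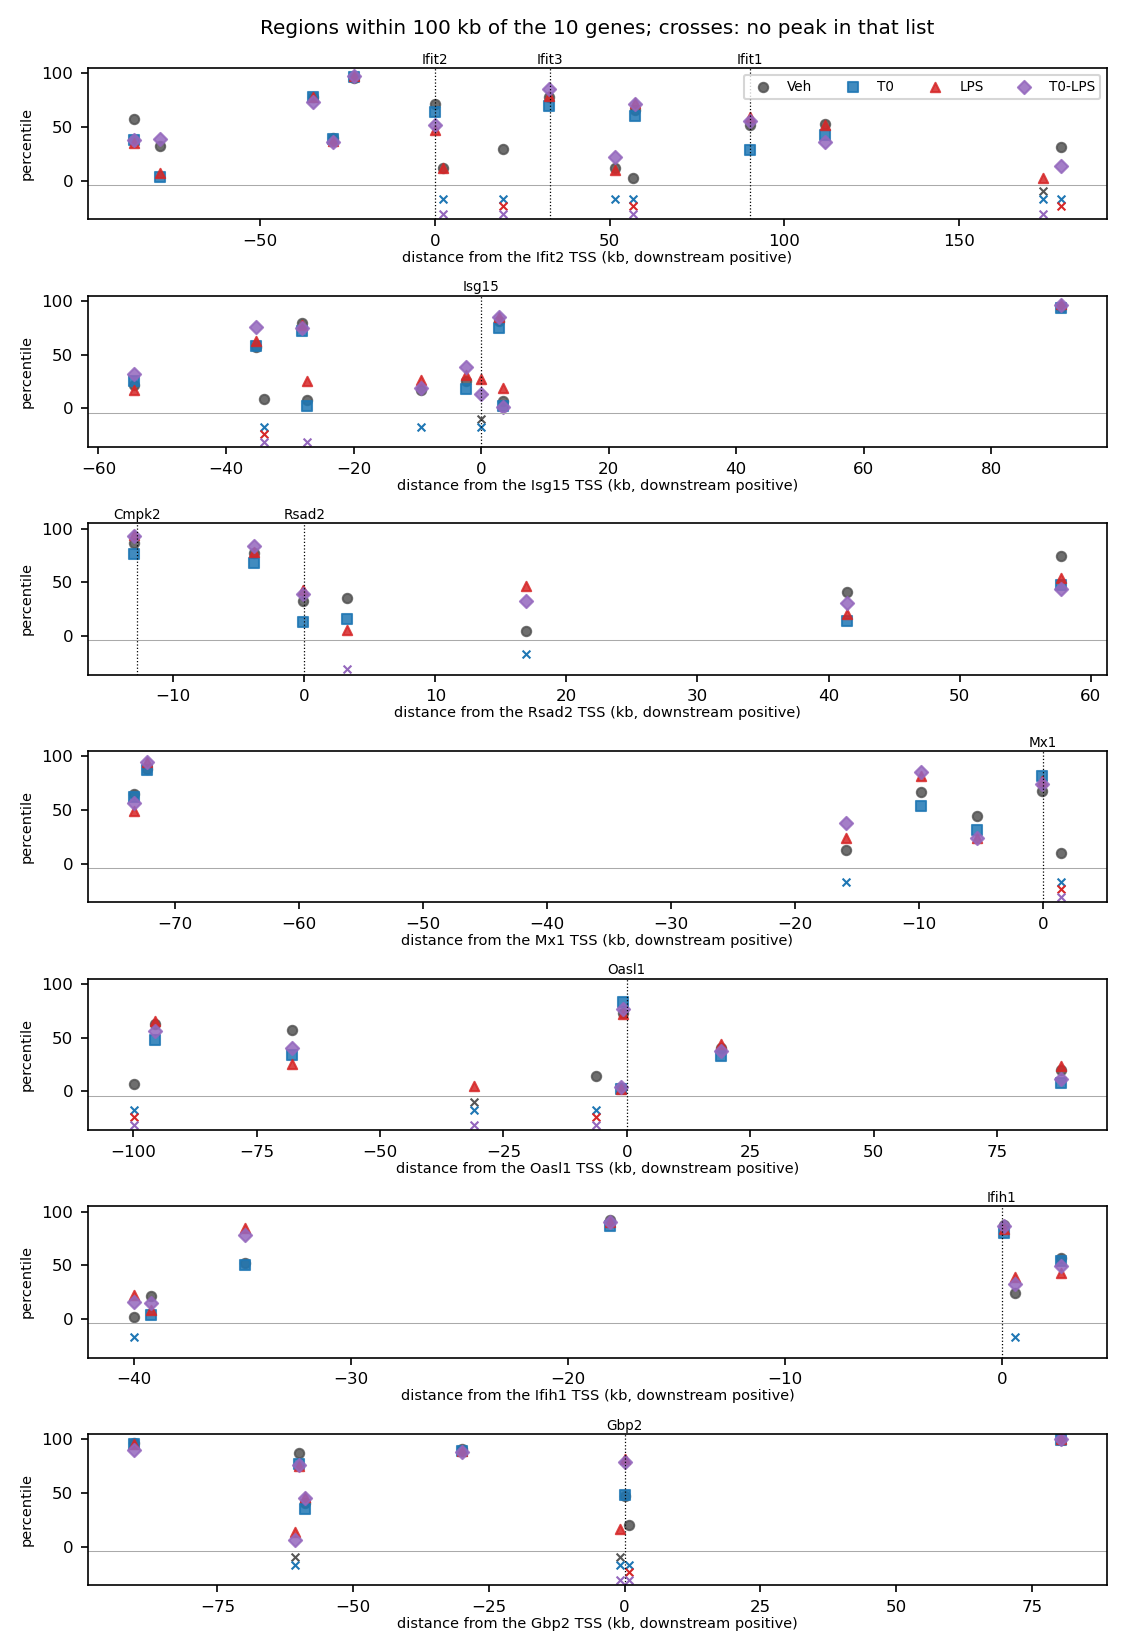
Score percentile within each list (y axis) of the 66 regions by distance from the TSS of the gene named under each panel (x axis, in kb), 1 panel for each of the 7 loci. Dotted lines mark the members' TSSs and crosses under the line mark lists without a peak. Crosses sit mostly under regions whose points are low.

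The question of the LPS comparison is which sites open or close after TLR4 stimulation. Of the 58 member regions in LPS, 5 were gained (8.62%, Wilson 95% interval 3.74 to 18.6), against 6.14% of all regions. Of the 61 in Veh, 8 were lost (13.1%), against 13.0%. Among the 53 that both lists held, 4 rose (7.55%, against 3.92%) and 8 fell (15.1%, against 9.14%), and 4 of the 7 falls that were in all 4 lists were called on the common ranks. The intervals of these 4 shares, which cover counting error only and treat neighbouring regions as separate, included the share over all regions. With the lists cut to equal length, 10 of 52 were gained (19.2%, interval 10.8 to 31.9), against 9.30%, a share below that interval. The 4 rises were the Gbp2 start, the Rsad2 downstream copy and the 2 Gca intron regions upstream of Ifih1. The median difference was 1.16 points for the members and -2.01 for all regions. A gained region lay near 4 of the 10 genes, against 38.4% of the 6797 protein-coding genes with 7 to 13 regions. Of the 10 regions nearest a TSS, only that of Isg15 was gained.

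The T0 comparison asks where the LXR agonist changes accessibility in unstimulated cells. No member region was gained of 46 (0.729% of all were) and 15 of 61 were lost (24.6%, interval 15.5 to 36.7), against 18.1% of all regions. Each of the 10 genes had at least 1 lost region, as did 80.8% of protein-coding genes with as many regions. The lost regions were weak. Their Veh percentiles ran from 1.43 to 31.2, and 14 of the 15 came from the 21 member regions in the lowest 30% of Veh (66.7%, against 55.6% of all regions there). Above that, 1 of 40 was lost (2.50%, against 2.33%). In 11 of the 15 no peak had been removed from the T0 list. With the lists cut to equal length, 5 of 48 were lost (10.4%, against 7.70%). Among the 46 regions in both lists 0 rose (against 0.0762%) and 6 fell (13.0%, against 10.4%), 5 of which were in all 4 lists. Of these 5, only the Rnf144a region at 57704 bp fell on the common ranks. The median difference was -6.64 points for the members and -5.58 for all regions on the whole lists, and -0.418 and 0.130 on the common ranks.

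**Figure D3:**
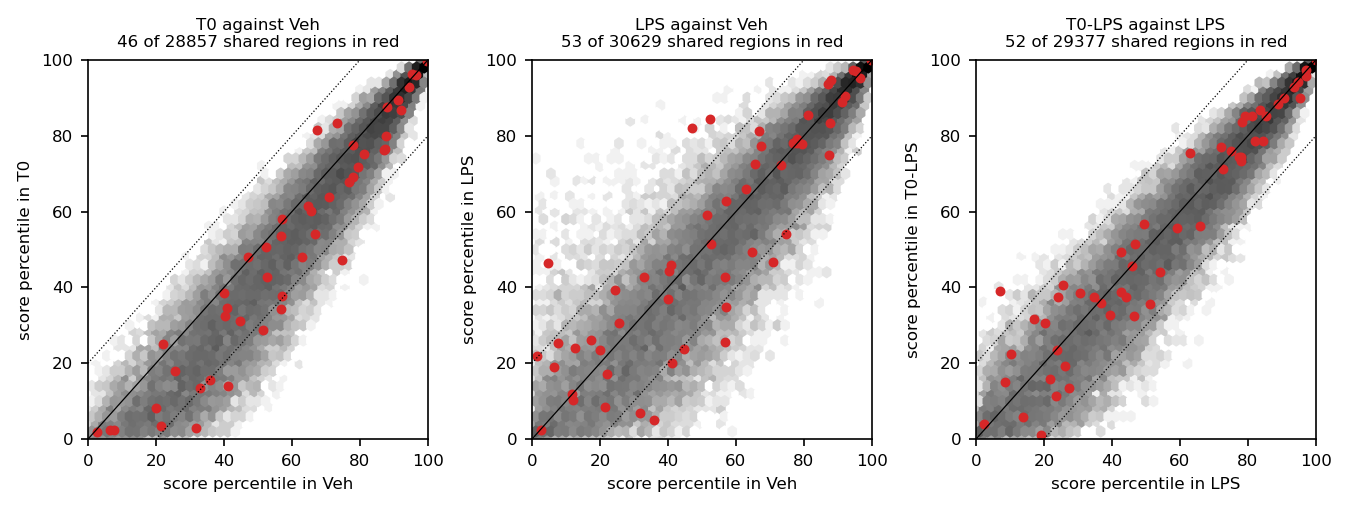
Score percentile of each shared region in 2 lists (x and y axes), with all regions in grey (darker for more regions, log scale) and the member regions in red. The solid line marks equal percentiles and the dotted lines 20 points. In T0 against Veh 39 of 46 members lie under the solid line, as most grey regions do, and in LPS against Veh the 4 members above the upper dotted line are the rises named in the text.

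In LPS-stimulated cells, T0-LPS was compared with LPS. Of the 58 member regions in LPS, 6 were lost (10.3%, interval 4.83 to 20.8), against 9.97% of all. They were the weak regions at 83930 bp from Ifit1, 2410 bp from Ifit2, -27220 bp from Isg15, 3302 bp from Rsad2, -30924 bp from Oasl1 and -783 bp from Gbp2, with percentiles up to 25.3 in LPS. Of 53, 1 was gained (1.89%, against 3.37%), the Slc16a12 intron region at 88858 bp. Among 52 shared regions 0 fell (against 4.36%) and 1 rose (1.92%, against 0.929%), the Ch25h region at -78764 bp. The median difference was -0.451 points, against -1.76 over all regions. Of the 5 regions gained with LPS, 2 were in T0-LPS (against 53.0% of the 2002 gained over all regions), and 3 were among the 6 lost. The 2 were the Isg15 start and the weak region just before the Gbp3 start. The 4 regions that rose with LPS were all in T0-LPS.

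From T0 to T0-LPS, the same 2 h of LPS with the agonist still present, 9 of 53 member regions were gained (17.0%, interval 9.20 to 29.2), against 11.7% of all, and 2 of 46 were lost (4.35%, against 7.70%). Of 44 shared regions 7 rose (15.9%, against 7.76%) and 0 fell (against 5.62%). The largest rises were at -78764 bp from Ifit2 (36.2 points), -9836 bp from Mx1 (31.2) and the Gbp2 start (30.7), followed by the Gca intron at -34856 bp (28.1), the starts of Ifit1 (26.8) and Rsad2 (25.4) and the region at -2334 bp from Isg15 (20.6). This comparison and that of T0 with Veh share the T0 list, so a region missing from it enters both.

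**Figure D4:**
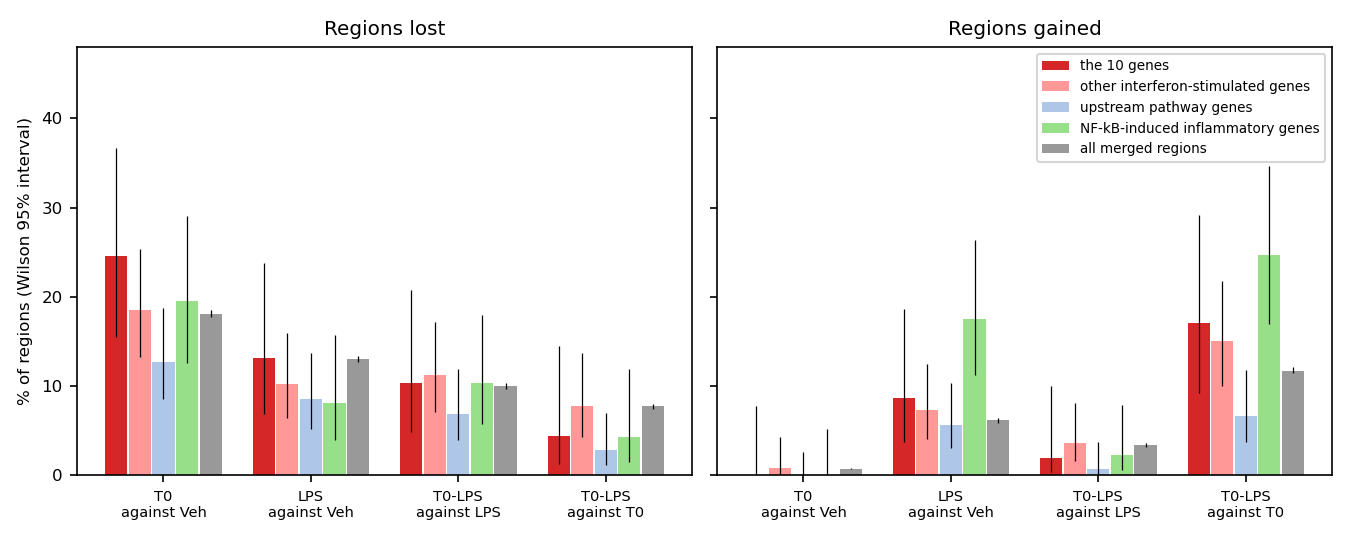
Share of regions lost or gained (y axis, % of the regions in the first or the second list) in each comparison (x axis) for the 10 genes, 3 comparison gene lists and all merged regions. Error bars are Wilson 95% intervals and cover counting error only. With LPS 8.62% of the member regions and 17.5% of those near the NF-kB-induced genes were gained.

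The same counts were made for 3 other gene lists. Near 30 other interferon-stimulated genes, after the 28 regions shared with the members were left out, 29 of 157 regions were lost with T0 (18.5%) and 11 of 152 gained with LPS (7.24%), 3 of them near Samd9l and 2 near Ifitm3. Near 13 genes upstream in the pathway (the interferon genes Ifnb1 and Ifna4, the receptor genes Ifnar1 and Ifnar2, their kinases Jak1 and Tyk2 with the inhibitor Socs1, Tlr4 with its adaptors Ticam1 and Ticam2, the RNA sensor adaptor Mavs, and Tbk1 and Irf3), 21 of 165 were lost with T0 (12.7%) and 9 of 160 gained with LPS (5.62%), 2 each near Tbk1 and Tyk2. Near 10 inflammatory genes induced through NF-kB, 17 of 87 were lost with T0 (19.5%) and 17 of 97 gained with LPS (17.5%, interval 11.2 to 26.3), 5 of them near Tnf and 4 each near Nfkbia and Tnfaip3. This last share exceeded that of the 10 antiviral genes (8.62%), but the 2 intervals overlap. The difference between the lists was not tested.

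Sequence was not part of the rule, but the genes were chosen as interferon-stimulated, a class whose factors bind the ISRE. The ISRE shares of the members and their promoters are thus not independent of that choice. Motifs were counted in the members and in all regions. In the 200 bp at the centre, 16 of 66 member regions held the ISRE core (24.2%), against 3.80% of 37620 regions. Within 1 kb of a protein-coding TSS it was 11 of 33, against 2.03% of such regions, and further away 5 of 33, against 4.54%. Of the 9 member regions that were gained or rose with LPS, 5 held the core (55.6%), against 8.56% of the 3201 such regions. These 5 were the starts of Isg15 and Gbp2, the region just before the Gbp3 start, the Rsad2 downstream copy and the Gca intron at -39971 bp. The Gca intron at -34856 bp held one outside its central 200 bp. An NF-kB consensus was found in 0 of these 9, against 19.2%, and a gamma-activated site (TTCNNNGAA) in 3, against 6.72%. The AP-1 sites TGACTCA and TGAGTCA stood in 13 of 66 (19.7%, against 13.4%) and the PU.1 site GAGGAAGT in 5 (7.58%, against 8.55%). AGGTCA, the hexamer of nuclear receptors such as LXR, stood in 5 (7.58%, against 11.9%). Over 1 kb from a TSS, AGGTCA stood in 15.2% of member regions, against 13.9%, and AP-1 in 21.2%, against 17.8%. Within 1 kb, AGGTCA stood in 0 of 33, against 7.11%, and AP-1 in 6 of 33 (18.2%), against 3.07%. Of the 15 regions lost with T0, 0 held AGGTCA, against 11.8% of all lost regions and 7.58% of the 66 members. The ISRE core stood in 4 of the 15 (26.7%), against 4.94% of all lost regions. That share was near the 24.2% of the 66 members. Motifs were searched on both strands, regions of 1 locus are not independent, and a match does not show that a factor bound.

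**Figure D5:**
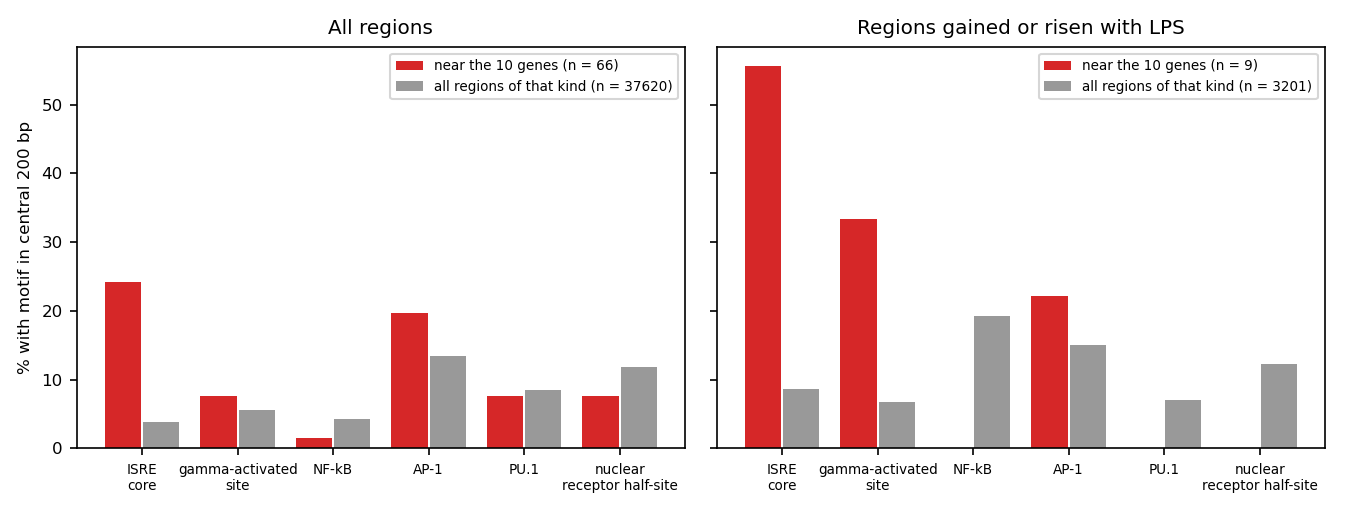
Share of regions (y axis, %) with each motif (x axis) in their central 200 bp, for all regions (left) and for regions gained or risen with LPS (right), near the 10 genes in red and over all regions of that kind in grey. The ISRE core stands at 24.2% against 3.80% on the left and at 55.6% against 8.56% on the right, where the red bars rest on 9 regions.

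By list, 44 of the 66 regions were in all 4 (66.7%, against 70.2% of all regions) and 7 in Veh alone (10.6%, against 7.73%). A further 6 were in every list but T0 (9.09%, against 4.98%): the Ifit1bl1 start, the Isg15 region at -9475 bp, the Rsad2 downstream copy, the Mx1 region at -15902 bp, and the Ifih1 regions at -39971 bp and 617 bp. In LPS their percentiles ran from 10.3 to 46.5. By position, 33 of the 66 lay within 1 kb of a protein-coding TSS (50.0%, against 29.7%), and 29 midpoints were intergenic, 22 in introns, 10 in UTRs and 5 in coding exons.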

How the data were processed

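ATAC-seq was measured in 16 BMDM libraries, 4 per group, and 4 peak lists were used, 1 per group. Per the study's methods and the submitters' processing notes, the authors trimmed adaptors with cutadapt, aligned with Bowtie2, dropped PCR duplicates (SAMtools) and ran MACS2 at q 0.001 on the pooled 4 libraries of each group. The notes name mm10 as the build. Peaks outside macrophage enhancers known from histone marks were then removed. The deposited score of each peak is the authors' peak caller score. Its definition is not given in the sources used here, it grows with depth, and it was used by rank only. Library depth is unknown.

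Peaks were merged in Python 3.11.15 (pandas 2.3.3), and bedtools 2.31.1 gave the same number of regions. Losses and raised scores planted in copies of the Veh peaks of chromosome 1 were recovered. TSSs came from the GENCODE vM21 basic annotation (GRCm38), in which 10 of 10 symbols matched, and coordinates are 1-based. Contig names and lengths matched the RefSeq GRCm38.p6 genome. Peak names are numbered along the genome, and a gap in the numbers between the neighbours of a lost region was read as room for a peak that had been removed. Intervals are Wilson 95% intervals (scipy 1.17.1). The 10 genes, the gene lists and the rules were chosen with earlier results of these data known. All members were named with their region nearest the TSS, every region missing from a list, and every region that moved by 20 points in T0 against Veh, LPS against Veh or T0-LPS against LPS. From the other lists, counts and the genes with most LPS-gained regions were given. Largest rises from T0 to T0-LPS, strong regions without a call and the likeness of the Rsad2 stretches were added after their values were seen. Alternatives were other windows, overlaps, list lengths, thresholds, ranks and peak widths.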

Additional observations from a re-analysis of the deposited data

Results flagged for a closer look

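Around the 10 genes, 2 regions moved one way with T0 in unstimulated cells and the other way in LPS-treated cells. Both differences are between single pooled lists and were not tested. T0 was also present for 2 h longer in T0-LPS than in T0. The region at -78764 bp from Ifit2, near Ch25h, differed by -28.9 points between T0 and Veh and by 32.2 points between T0-LPS and LPS. Such opposite moves of 20 points or more were found in 35 of 26439 regions (0.132%). On ranks among regions in all 4 lists the values were -11.6 and 28.7, and 62.1% of its bases were soft-masked as repeat.

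The Slc16a12 intron region at 88858 bp from Ifit1 was in Veh, with a score of 235, and in T0-LPS, but in neither T0 nor LPS, as were 387 of 37648 regions (1.03%). The numbering leaves room for 1 removed peak in each list that lacks it.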

How the results depend on the processing

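No paired analysis was possible because peaks had been called on the 4 libraries of a group together. For the same reason no library could be left out. Values are given in the order T0 against Veh, LPS against Veh, T0-LPS against LPS and T0-LPS against T0 where a setting moved them. A window of 10 kb left 26 regions, as did taking only regions with a member as the nearest gene. At 10 kb, 6, 3, 3 and 1 were lost, and 2, 0 and 3 were gained in the last 3 comparisons. At 50 kb, 3 were gained with LPS and 0 in T0-LPS against LPS. With scores at or above the median, every loss and each gain that had been counted came to 0. With lists of equal length, 5 were lost in T0 against Veh and 4 in T0-LPS against T0, and 3, 10 and 3 were gained in the first 3 comparisons. A reciprocal overlap of 50% gave 5 gained in T0 against Veh, 2 gained in T0-LPS against LPS and 5 lost in T0-LPS against T0.

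On common ranks T0 against Veh had 1 rise and 1 fall and LPS against Veh 4 falls. No share over all regions is set beside the alternative counts in this section, so they show only how the member counts moved. At 10 points the rises were 2, 9, 7 and 16, and the falls 16 with T0, 5 in T0-LPS against LPS and 1 in T0-LPS against T0. At 30 points falls came to 0 with T0 and 2 with LPS, and rises to 3 in T0-LPS against T0. By peak width in place of score, falls were 10, 5, 9 and 5. By width the Ch25h region at -78764 bp reversed in T0-LPS against LPS (-0.909 points), and so did the Gbp2 start in LPS against Veh (-7.82 points). Of the other rises and falls in the first 3 comparisons, 12 dropped below 20 points by width and 5 held. On common ranks 7 dropped below 20 points and 8 held. The ISRE core share was 15.2% over 1 kb from a TSS (against 4.54% of all such regions), and AGGTCA stood in 19.7% of whole regions (against 23.6%). The cause of these differences was not tested. Of the summary values under these settings, 45 moved and the other 43 stayed within 1.5 times the reported count or within its interval.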
